A study of Mus musculus with 12 samples.

Results

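The serum- and glucocorticoid-regulated kinases Sgk1, Sgk2 and Sgk3 and the ubiquitin ligase Nedd4l, a substrate of SGK1, were described in liver of C57BL/6J mice that differed in oxygen supply and in treatment with the glucocorticoid dexamethasone (DEX), a drug that binds the glucocorticoid receptor. The 4 genes were chosen by name, as the kinase family and its best known target, with their values in these libraries already known. They are 4 of 54838 gene identifiers in the deposited table, and all 4 were among the 13861 genes with enough counts to be tested. Messenger RNA of whole liver was sequenced from 4 groups of 3 libraries each, which the series describes as biological replicates. Normoxia_PBS and Normoxia_DEX mice stayed at 21% O2, and Hypoxia_PBS and Hypoxia_DEX mice breathed 7% O2 over 24 h. An injection of PBS or of DEX (10 mg/kg) into the peritoneum followed, hypoxic mice went back to 7% O2, and livers were taken 2 h after the injection. No group carried an altered allele in the labels, the ages were not used here, and every mouse, controls included, was injected. Total counts ranged from 12464687 to 24715995 per library, and the 4 genes had 203 to 3300 reads in a library, which alone gives a counting error of 1.74% to 7.02%.

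SGK kinases are close relatives of AKT. Phosphatidylinositol 3-kinase activates them through PDK1 and mTORC2, and they phosphorylate many of the sites that AKT also phosphorylates. SGK1 is unusual among kinases in being controlled to a large extent by its own transcription, since its mRNA and protein turn over fast, and the glucocorticoid and mineralocorticoid receptors are classical inducers of the gene. SGK3 carries a PX domain that binds phosphatidylinositol 3-phosphate and places it on endosomes, and SGK2 is the least studied of the family. NEDD4L tags membrane proteins such as the epithelial sodium channel with ubiquitin. Its phosphorylation by SGK1 creates a binding site for 14-3-3 proteins, which keeps the ligase from its targets.

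Sgk1 (ENSMUSG00000019970) lies on the plus strand of chromosome 10 at chr10:21882184-21999903 of GRCm38 (mm10), with 13 transcripts in GENCODE M21. RefSeq promoter windows on GRCm38.p6, reaching from 250 bases before to 50 bases after a start site, covered 6 start sites of Sgk1, and none was found in that table for the other 3 genes. The windows were searched on both strands for the palindromic glucocorticoid response element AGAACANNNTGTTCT, for its 6-base arm AGAACA, and for the hypoxia response cores ACGTG and GCGTG. The full element was present in 3 of 32851 windows of all genes (0.00913%), and 1 of these belonged to Sgk1. The other windows with it belonged to Acnat2, whose log2 fold change with DEX was -0.63 (SE 0.19) in normoxia and -0.90 (SE 0.19) in hypoxia, and to Gm35041, which had 0 CPM in every library. The arm was present in 19% of all windows and in 3 of the 6 of Sgk1, ACGTG in 19.6% and in 1 of 6, and GCGTG in 32.4% and in 2 of 6. Shown are the window with the full element and the window of the start site nearest to the 3′ end of the gene. The first holds the steroid element and an oxygen core, which do not adjoin, and the second holds neither the element nor an arm. Both are given 5′ to 3′ on the plus strand, in lower case, with the full element and the hypoxia cores in capitals.
Sgk1 start site 5, chr10:21993640-21993939: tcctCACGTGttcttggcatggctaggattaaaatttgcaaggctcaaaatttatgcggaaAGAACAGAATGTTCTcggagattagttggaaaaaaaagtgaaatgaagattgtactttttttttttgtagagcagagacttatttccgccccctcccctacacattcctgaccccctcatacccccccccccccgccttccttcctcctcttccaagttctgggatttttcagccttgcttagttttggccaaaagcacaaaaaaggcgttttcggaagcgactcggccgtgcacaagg
Sgk1 start site 6, chr10:21994416-21994715: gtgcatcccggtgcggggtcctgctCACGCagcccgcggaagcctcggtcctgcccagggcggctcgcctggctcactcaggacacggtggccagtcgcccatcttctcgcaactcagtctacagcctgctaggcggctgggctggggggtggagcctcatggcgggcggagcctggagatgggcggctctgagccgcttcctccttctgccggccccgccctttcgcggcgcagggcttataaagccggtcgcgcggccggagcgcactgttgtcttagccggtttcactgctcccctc

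In the window of start site 5 the element AGAACAGAATGTTCT ran from chr10:21993701 to chr10:21993715 and began 189 bases before that start site and 965 bases before start site 6. The capitals CACGTG near the beginning of the same window hold ACGTG on both strands, and its last 2 bases are also the first 2 of a further arm, which lies on the minus strand and appears in the printed strand as TGTTCT. The window of start site 6 held 1 GCGTG core, which lies on the minus strand and appears in the printed strand as CACGC, 225 bases before the start, and its GC content was 69.7% against 46.3% in the window of start site 5. A match in a window is a description of its letters and not of a bound site. Counts were made per gene, so the share of reads from each start site was not analysed here.

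**Figure D1:**
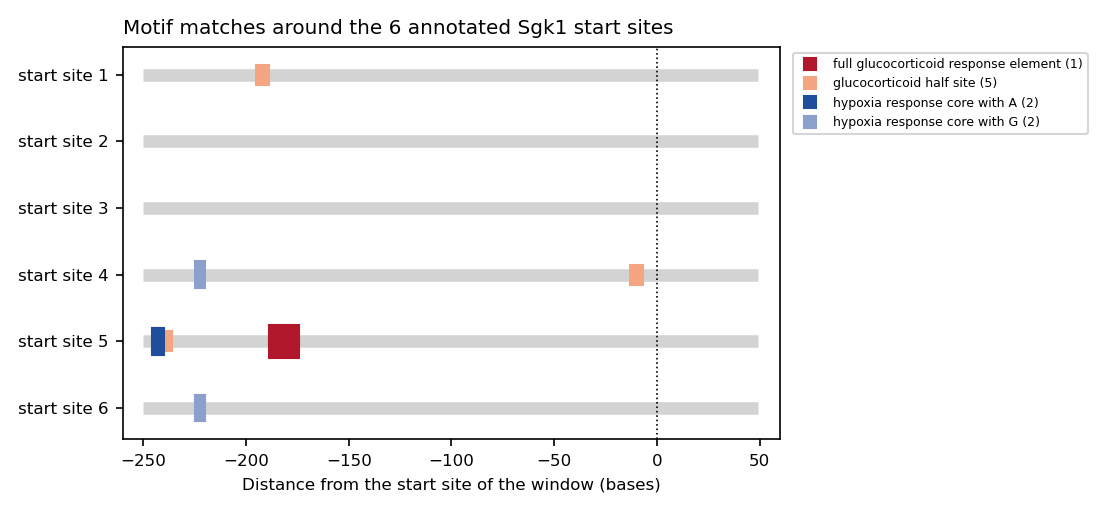
Motif matches around the 6 annotated start sites of Sgk1, numbered from the 5′ end of the gene; the x axis is the distance from the start site in bases, grey bars are the windows searched, and numbers in the legend count matches. Start site 5 alone holds the full element, in the same window as the 2 overlapping ACGTG matches, and start sites 2 and 3 hold no match.

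Sgk1 had the largest fold change with DEX among the 4 genes in normoxia and a value near 0 in hypoxia. Levels are CPM, read counts scaled to a common library size after TMM scaling (trimmed mean of M-values), and fold changes are from edgeR's quasi-likelihood model, in log2 with their standard error (SE). In the Normoxia_PBS libraries Sgk1 was at 30.4, 45.5 and 54.3 CPM, and in the Normoxia_DEX libraries at 112, 137 and 139.8 CPM. All 3 DEX libraries were above all 3 PBS libraries, and the level was 2.99-fold higher with DEX (log2 fold change 1.58, SE 0.18). In hypoxia the PBS libraries were at 62.4, 68.1 and 62.4 CPM and the DEX libraries at 59.6, 73.0 and 57.7 CPM. These ranges overlapped, with a log2 fold change of -0.02 (SE 0.18). Hypoxia thus went with a higher level under PBS (log2 fold change 0.57, SE 0.18) and a lower level under DEX (-1.03, SE 0.18), without overlap in either comparison. The difference between the DEX responses at the 2 oxygen levels was -1.60 (SE 0.25). By mean level the order was Normoxia_PBS at 43.4 ± 12.1 CPM, Hypoxia_DEX at 63.4 ± 8.37 CPM, Hypoxia_PBS at 64.3 ± 3.29 CPM and Normoxia_DEX at 129.5 ± 15.2 CPM (SD, n = 3), and the middle pair did not differ beyond their spread.

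Sgk2 followed oxygen instead. The gene (ENSMUSG00000017868) lies on the plus strand of chromosome 2 at chr2:162987330-163014127 of GRCm38. It was at 43.9, 48.3 and 64.3 CPM in Normoxia_PBS and at 63.3, 67.4 and 62.5 CPM in Normoxia_DEX. It was at 26.8, 20.2 and 21.9 CPM in Hypoxia_PBS and at 21.4, 25.3 and 19.3 CPM in Hypoxia_DEX. Each of the 6 hypoxic libraries was below each of the 6 normoxic ones. With hypoxia the level was 2.26-fold lower under PBS (log2 fold change -1.18, SE 0.15) and 2.94-fold lower under DEX (-1.56, SE 0.15). DEX and PBS libraries overlapped at both oxygen levels, with log2 fold changes of 0.31 (SE 0.14) in normoxia and -0.07 (SE 0.15) in hypoxia, and the difference between these was -0.38 (SE 0.21). In whole liver, fewer cells of a type and less RNA per cell cannot be told apart, here or for any gene below.

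Sgk3, the endosomal member, was higher with DEX in normoxia and not in hypoxia. The gene (ENSMUSG00000025915) lies on the plus strand of chromosome 1 at chr1:9798107-9900845 of GRCm38. It was at 18.3, 19.3 and 19.4 CPM in Normoxia_PBS and at 26.2, 29.0 and 31.0 CPM in Normoxia_DEX, without overlap (log2 fold change 0.60, SE 0.11). In hypoxia it was at 16.6, 21.8 and 19.6 CPM with PBS and at 14.0, 17.7 and 15.0 CPM with DEX. There the DEX mean was the lower one and the ranges overlapped (log2 fold change -0.31, SE 0.11). The difference between the DEX responses was -0.91 (SE 0.16). Hypoxic and normoxic PBS libraries overlapped (0.02, SE 0.11), whereas under DEX every hypoxic library was below every normoxic one (-0.89, SE 0.11). The lowest group mean was 15.6 ± 1.92 CPM in Hypoxia_DEX and the highest 28.7 ± 2.40 CPM in Normoxia_DEX, with both PBS groups between them at 19.0 ± 0.633 and 19.3 ± 2.63 CPM (SD, n = 3).

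**Figure D2:**
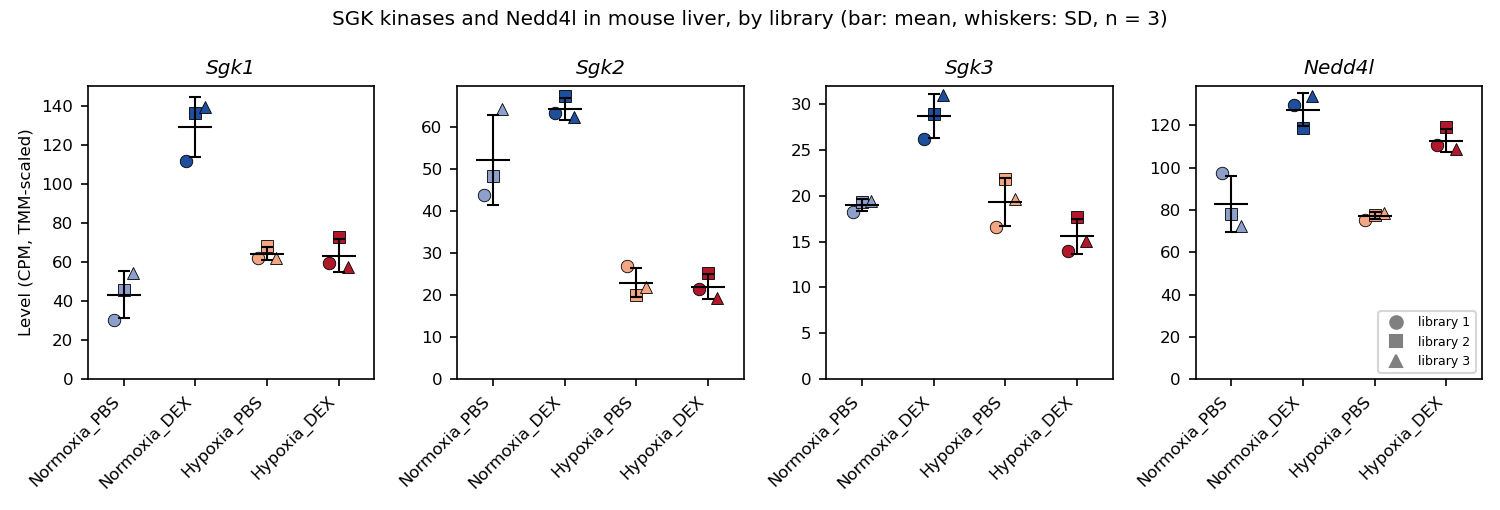
Level of each gene in every library, in TMM-scaled CPM on the y axis, by group; points are libraries with their number as the symbol, horizontal bars are means and whiskers SD (n = 3). Sgk1 stands at 112 to 139.8 CPM in Normoxia_DEX and at 30.4 to 73.0 CPM in the other groups, Sgk2 is low in both hypoxic groups, and Nedd4l is high in both DEX groups.

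Nedd4l, the ligase that the kinases act on, was higher with DEX at both oxygen levels. The gene (ENSMUSG00000024589) lies on the plus strand of chromosome 18 at chr18:64887705-65217828 of GRCm38, and 277 of its exonic bases (1.57%) are shared with the antisense gene A330084C13Rik. The strand setting of the counting was not stated, so reads in that stretch cannot be assigned. Nedd4l was at 97.7, 78.3 and 72.3 CPM in Normoxia_PBS and at 129.9, 119 and 134 CPM in Normoxia_DEX (log2 fold change 0.62, SE 0.10). It was at 75.4, 77.8 and 78.7 CPM in Hypoxia_PBS and at 110.5, 119 and 109 CPM in Hypoxia_DEX (0.54, SE 0.10). DEX libraries were above PBS libraries without overlap in normoxia and in hypoxia, and the responses differed by -0.08 (SE 0.14). Oxygen groups overlapped under PBS (-0.10, SE 0.10) and under DEX (-0.18, SE 0.10). Library Normoxia_PBS-1 was the highest of its group, and without it the log2 fold change with DEX in normoxia was 0.76 and that with hypoxia under PBS was 0.04.

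At an edgeR adjusted p under 0.05 over all tested genes, 2 of the 4 genes passed for hypoxia against normoxia in PBS (Sgk1 higher, Sgk2 lower), where 35.7% of all tested genes did. For DEX in normoxia 3 passed, all higher (Sgk1, Sgk3 and Nedd4l), with 16.8% of all genes, and for DEX in hypoxia 1 passed (Nedd4l), with 13.2%. For hypoxia against normoxia under DEX 3 passed, all lower (the 3 kinases), with 42.9%, and for the difference of the DEX responses 2 passed (Sgk1 and Sgk3), with 1.32%. The genes were chosen with these values known, so the counts describe them and no p is attached to any of them. In 7 of 19 alternative fits Sgk1 did not pass for hypoxia under PBS, among them those without any 1 of the 3 Hypoxia_PBS libraries or without Normoxia_PBS-2. Sgk3 did not pass for the difference of the DEX responses without Hypoxia_DEX-1 or without Hypoxia_DEX-3, which was 2 of 18 fits. Conversely, Sgk3 passed for DEX in hypoxia in 4 of 19 alternative fits and Sgk2 for DEX in normoxia in 1 of 19.

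**Figure D3:**
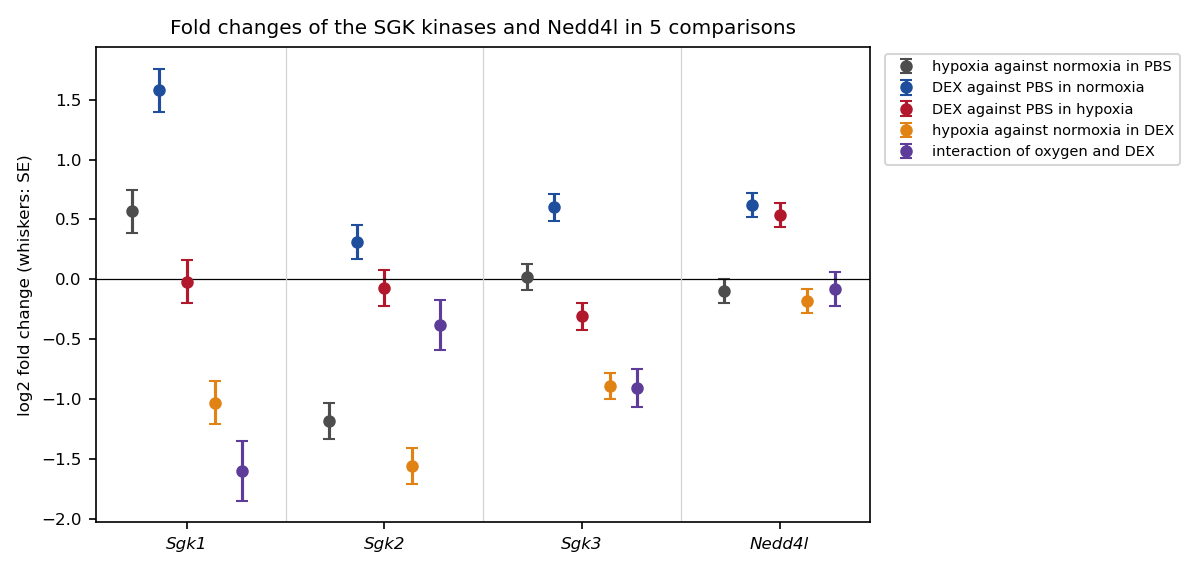
Fold change of each gene in the 5 comparisons, as log2 on the y axis, with whiskers of 1 SE either way. DEX in normoxia is above 0 for Sgk1 (1.58), Sgk2 (0.31), Sgk3 (0.60) and Nedd4l (0.62), and DEX in hypoxia for Nedd4l (0.54), while hypoxia under DEX is below 0 for Sgk1 (-1.03), Sgk2 (-1.56) and Sgk3 (-0.89), and hypoxia under PBS for Sgk2 (-1.18).

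Several hypoxic libraries stood apart, and their group labels were kept. Hypoxia_DEX-1 and Hypoxia_DEX-3 formed the closest replicate pair, with a mean chi-square per gene of 1.79, where all remaining pairs had 10.5 to 38.5. They still differed beyond sampling noise, with 9.16% of genes over the 5% limit, and were counted as separate libraries. That measure covers sampling of reads only, so it cannot show whether they came from separate mice. The standard errors treat them as independent. Hypoxia_DEX-2 and Hypoxia_PBS-1 lay away from their groups on the second principal component, which held 32.9% of the variance of the 1000 most variable genes. With the close pair summed into 1 library, the log2 difference of DEX responses was -1.52 for Sgk1, -0.84 for Sgk3 and -0.03 for Nedd4l, and with the other pair left out it was -1.69, -1.07 and -0.10. Under the same settings the log2 fold change of Sgk2 with hypoxia was -1.19 and -1.32 under PBS and -1.49 and -1.64 under DEX. The Sgk3 value for DEX in hypoxia was -0.25 and -0.48, against -0.31 with all libraries, and that of Nedd4l was 0.58 and 0.51.

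Levels of different genes were compared per kilobase of annotated exons, with exon unions of 4903 bases for Sgk1, 3412 for Sgk2, 14311 for Sgk3 and 17659 for Nedd4l. On this scale the summed level of the 3 kinases was 25.5 ± 5.50 CPM per kb in Normoxia_PBS, 47.3 ± 3.54 in Normoxia_DEX, 21.2 ± 0.628 in Hypoxia_PBS and 20.5 ± 2.69 in Hypoxia_DEX (SD, n = 3). Only Normoxia_DEX stood clear of the other groups, with its lowest library at 43.2 and the highest of the others at 31.3 CPM per kb. The kinases contributed unequally, and their order changed with the group. Sgk2 made up 60.2% ± 3.08 of the sum in Normoxia_PBS, 40.0% ± 2.77 in Normoxia_DEX, 31.7% ± 4.24 in Hypoxia_PBS and 31.5% ± 0.851 in Hypoxia_DEX. Sgk1 made up 34.5% ± 3.60, 55.7% ± 2.69, 61.9% ± 3.32 and 63.2% ± 0.543 in the same order. Sgk2 was thus the larger part in Normoxia_PBS and Sgk1 in the other 3 groups, in every library of each. Sgk3 made up between 4.24% and 6.39% as a group mean.

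**Figure D4:**
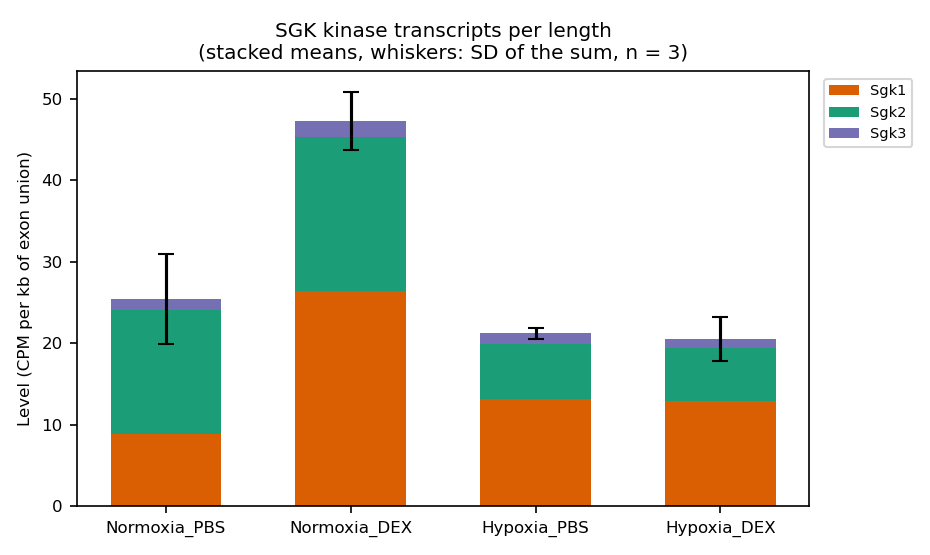
Stacked mean levels of the 3 kinases in CPM per kb of exon union, by group, with whiskers for the SD of the sum (n = 3). The sum is 47.3 CPM per kb in Normoxia_DEX and 20.5 to 25.5 in the other groups, and the Sgk2 part is smaller in both hypoxic groups.

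The shares depend on the length assigned to each gene. Per kilobase of coding sequence in GENCODE M21, Sgk1 held 27.4%, 46.8%, 50.5% and 52.7% of the sum in Normoxia_PBS, Normoxia_DEX, Hypoxia_PBS and Hypoxia_DEX, Sgk2 held 57.7%, 40.7%, 31.3% and 31.7%, and Sgk3 held 12.5% to 18.2%. The order of Sgk1 and Sgk2 was the same on both scales. The ratio of Sgk1 to Nedd4l per kb of exon was 1.97 ± 0.800 in Normoxia_PBS and 3.67 ± 0.527 in Normoxia_DEX, but 3.00 ± 0.149 in Hypoxia_PBS and 2.02 ± 0.164 in Hypoxia_DEX (SD, n = 3). Within each oxygen level the libraries did not overlap, with 1.12 to 2.71 against 3.11 to 4.15 in normoxia and 2.86 to 3.15 against 1.91 to 2.21 in hypoxia. Per coding length the group means were 0.895, 1.67, 1.36 and 0.916, so the ratio's direction was the same but Nedd4l was the higher of the pair in 2 of the groups.

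Further genes of the pathway were taken in 6 lists by role, with 111 genes of which 102 were tested. The lists were chosen with earlier results of these data known, and they hold known glucocorticoid targets. Shares above those of all genes, and the adjusted p values below, therefore describe the lists and do not test them. In all, 18 rose and 17 fell with hypoxia under PBS (34.3% of those tested, against 35.7% of all genes), 18 rose and 6 fell with DEX in normoxia (23.5% against 16.8%), and 15 rose and 10 fell with DEX in hypoxia (24.5% against 13.2%). With hypoxia under DEX 25 rose and 29 fell (52.9% against 42.9%). The difference between DEX responses passed for 2 genes, or 1.96% against 1.32%. The median log2 fold change over all tested genes was between -0.02 and 0.01 in the 5 comparisons. Comparisons that share a group of mice are not independent. Unless stated, the genes named next kept their call in every alternative fit.

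Upstream of the kinases, Irs2 had the largest changes, with oxygen. Of 26 genes for insulin signalling, phosphatidylinositol lipids and the mTORC2 complex, 4 rose and 4 fell with hypoxia under PBS, 2 rose and 2 fell with DEX in normoxia, 1 rose and 4 fell with DEX in hypoxia, and 5 rose and 8 fell with hypoxia under DEX. The list's median was between -0.05 and 0.04. Irs2, an adaptor of the insulin receptor, rose with hypoxia from 86.3 ± 22.9 to 217.8 ± 15.3 CPM under PBS (log2 fold change 1.34, SE 0.19, edgeR adjusted p = 0.000307) and from 47.8 ± 9.74 to 306 ± 25.2 CPM under DEX (2.68, SE 0.20, edgeR adjusted p = 2.64e-06). Pik3r1, the main regulatory subunit of phosphatidylinositol 3-kinase, rose with DEX in normoxia from 65.1 ± 6.51 to 114.8 ± 11.1 CPM (0.82, SE 0.11, edgeR adjusted p = 0.000148). With hypoxia it rose by 1.07 (SE 0.11) under PBS and 0.66 (SE 0.11) under DEX (edgeR adjusted p = 1.37e-05 and 0.000361, alternatives not given). Its rise with DEX in hypoxia was 0.40 (SE 0.11, edgeR adjusted p = 0.0257), a call lost in 4 of 19 alternatives. Pik3cd, a catalytic subunit known from leukocytes, fell with hypoxia under PBS by a log2 fold change of 1.0 (SE 0.18, edgeR adjusted p = 0.00085), from 10.9 ± 0.567 to 5.50 ± 1.30 CPM. Pdpk1, which encodes PDK1, did not pass in any comparison and had group means of 40.5 to 42.2 CPM. Among 8 related kinases, Akt2 fell with hypoxia from 78.5 ± 2.93 to 56.6 ± 2.46 CPM under PBS (-0.47, SE 0.06, edgeR adjusted p = 0.000104), and Akt1 had group means of 51.1 to 58.3 CPM and passed in none. In that list 2 fell with hypoxia under PBS and 2 under DEX, 1 rose and 1 fell with DEX in normoxia, and 0 passed in edgeR for DEX in hypoxia, where 0 had an unadjusted p under 0.05 and 0 passed in DESeq2, with medians between -0.08 and 0.09.

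Steroid receptors, the enzymes that supply their ligand and classical target genes showed mixed changes. Of 7 such genes tested, 2 rose and 2 fell with hypoxia under PBS, 2 rose and 1 fell with DEX in normoxia, 3 rose and 2 fell with DEX in hypoxia, and 2 rose and 3 fell with hypoxia under DEX, with medians between -0.26 and 0.08. Hsd11b1, which regenerates active glucocorticoid in liver, fell with hypoxia under PBS from 581.8 ± 47.0 to 433.8 ± 52.1 CPM (-0.42, SE 0.11, edgeR adjusted p = 0.0073). Nr3c1, the glucocorticoid receptor itself, was between 69.6 and 82.9 CPM as a group mean, and its 1 call, with DEX in hypoxia (-0.23, SE 0.07, edgeR adjusted p = 0.0469), was lost in 16 of 19 alternatives. Fkbp5, a receptor co-chaperone and steroid target, had a log2 response to DEX of 2.46 (SE 0.26) in normoxia and 1.10 (SE 0.25) in hypoxia (edgeR adjusted p = 0.000108 and 0.0174). The latter call was lost without Hypoxia_DEX-1, Hypoxia_PBS-2 or Hypoxia_PBS-3 and without the count filter, at an adjusted p of up to 0.0607. Tsc22d3, which encodes the anti-inflammatory protein GILZ, fell with hypoxia under DEX from 163.6 ± 24.3 to 57.2 ± 2.03 CPM (-1.52, SE 0.19, edgeR adjusted p = 0.000121). Its log2 response to DEX was 1.85 (SE 0.19) in normoxia and 0.67 (SE 0.19) in hypoxia (edgeR adjusted p = 6.49e-05 and 0.045). The latter call was lost in 13 of 19 alternatives. The difference between the DEX responses of Fkbp5 was -1.35 and that of Tsc22d3 -1.18, and neither passed in edgeR (adjusted p = 0.117 and 0.0667), while both passed in DESeq2 (adjusted p = 0.00375 and 0.00171). Of the remaining alternatives, the difference of Fkbp5 passed in 0 and that of Tsc22d3 in 1. Nr3c2, the mineralocorticoid receptor, had log2 fold changes with DEX of -0.47 in normoxia and 0.45 in hypoxia (edgeR adjusted p = 0.0297 and 0.0473), and these calls were lost in 4 and 12 of 19 alternatives.

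The ligases of the NEDD4 family, their adaptors, 14-3-3 proteins and opposing deubiquitinases held the gene with the largest rise of all lists with DEX in normoxia. Usp2, a deubiquitinase reported to spare the epithelial sodium channel, rose with DEX in normoxia from 3.38 ± 1.79 to 22.5 ± 4.53 CPM (2.77, SE 0.34, edgeR adjusted p = 0.000347) and in hypoxia from 18.5 ± 5.78 to 51.2 ± 6.99 CPM (1.47, SE 0.29, edgeR adjusted p = 0.00891). It also rose with hypoxia under PBS (2.48, SE 0.35, edgeR adjusted p = 0.000488) and under DEX (1.18, SE 0.28, edgeR adjusted p = 0.00726). The difference between its DEX responses was -1.30 (SE 0.45) and did not pass (edgeR adjusted p = 0.255). Nedd4, the closest relative of Nedd4l, rose with hypoxia from 273 ± 2.86 to 400.0 ± 30.4 CPM under PBS (0.55, SE 0.08, edgeR adjusted p = 0.000298) and did not pass with DEX in normoxia (0.04, edgeR adjusted p = 0.794). Hecw2, another ligase of the family, rose with DEX by 0.78 (SE 0.14) in normoxia and 0.86 (SE 0.15) in hypoxia and fell with hypoxia by 0.66 under PBS and by 0.58 under DEX (edgeR adjusted p = 0.00159, 0.00225, 0.00457 and 0.00481). Ywhaq, a 14-3-3 protein, fell with hypoxia under DEX from 26.4 ± 1.17 to 16.6 ± 1.21 CPM (-0.67, SE 0.08, edgeR adjusted p = 2.37e-05). The 14-3-3 genes were mixed there. Ywhab also fell (-0.26, edgeR adjusted p = 0.00467), and Ywhae (0.27) and Ywhag (0.28) rose (edgeR adjusted p = 0.00273 and 0.00185). Ywhah, Ywhaz and Sfn did not pass, and alternatives are not given for these other 14-3-3 genes. Over the 20 genes tested, 6 rose and 3 fell with hypoxia under PBS, 3 rose with DEX in normoxia, 2 rose with DEX in hypoxia, and 7 rose and 5 fell with hypoxia under DEX, with medians between -0.01 and 0.12.

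Transport proteins that SGK1 is known to regulate were in part not measurable in liver. Of 22 listed, 15 were tested, and the sodium channel subunits Scnn1b and Scnn1g, the cotransporter Slc12a3 and the channels Kcnj1 and Kcne1 were among those with too few counts. Atp1b1, the beta subunit of the sodium pump, rose with DEX from 45.7 ± 9.51 to 184.7 ± 20.7 CPM in normoxia (2.02, SE 0.17, edgeR adjusted p = 7.69e-06) and from 61.6 ± 8.59 to 202.3 ± 30.6 CPM in hypoxia (1.72, SE 0.17, edgeR adjusted p = 6.28e-05). Slc38a2, a neutral amino acid carrier, rose with DEX by 1.20 (SE 0.21) in normoxia and 1.14 (SE 0.21) in hypoxia (edgeR adjusted p = 0.00265 and 0.00526). Slc6a6, the taurine carrier, fell with DEX in hypoxia from 97.5 ± 19.9 to 61.5 ± 2.05 CPM (-0.66, SE 0.14, edgeR adjusted p = 0.00727). Slc2a1, a glucose carrier, fell with hypoxia under DEX from 16.1 ± 0.449 to 8.23 ± 0.245 CPM (-0.96, SE 0.14, edgeR adjusted p = 0.000138). In normoxia it rose with DEX from 9.16 ± 1.84 CPM (0.82, SE 0.14, edgeR adjusted p = 0.000968). It did not pass with hypoxia under PBS (-0.27, edgeR adjusted p = 0.162) or with DEX in hypoxia (0.13, edgeR adjusted p = 0.637). Scnn1a, the sodium channel subunit that was measurable, had group means of 26.1 to 31.1 CPM and did not pass in any comparison. In the list 3 rose and 2 fell with hypoxia under PBS, 3 rose with DEX in normoxia, 4 rose and 1 fell with DEX in hypoxia, and 5 rose and 3 fell with hypoxia under DEX, with medians between -0.14 and 0.13.

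Among 26 signalling and transcription targets, Foxo1 and Foxo3, forkhead factors that SGK and AKT keep in the cytoplasm, rose with DEX. Foxo1 rose by 1.21 (SE 0.17) in normoxia and 1.28 (SE 0.18) in hypoxia (edgeR adjusted p = 0.000557 and 0.000795). Foxo3 rose with DEX in normoxia from 28.9 ± 3.84 to 69.2 ± 14.4 CPM (1.26, SE 0.19, edgeR adjusted p = 0.000742), and Foxo4 fell with hypoxia under DEX from 30.4 ± 1.15 to 16.3 ± 0.328 CPM (-0.90, SE 0.08, edgeR adjusted p = 2.73e-06). Ndrg1, whose protein is a widely used readout of SGK1 activity, fell with hypoxia by 0.89 (SE 0.13) under PBS and by 1.54 (SE 0.13) under DEX (edgeR adjusted p = 0.00028 and 2.85e-06). With DEX it rose in normoxia by 0.75 (SE 0.13, edgeR adjusted p = 0.00109), and its value in hypoxia was 0.10 (edgeR adjusted p = 0.709). These are RNA levels, and neither phosphorylation nor protein was measured. Klf15, a glucocorticoid-induced transcription factor, rose with DEX in normoxia by 1.09 (SE 0.16, edgeR adjusted p = 0.000431) and in hypoxia from 60.8 ± 14.8 to 143.9 ± 17.1 CPM (1.24, SE 0.16, edgeR adjusted p = 0.000345). Smad3, a transducer of TGF-beta signals, fell with DEX in hypoxia from 14.8 ± 1.68 to 6.83 ± 0.369 CPM (-1.12, SE 0.16, edgeR adjusted p = 0.000396). Pck1, the gluconeogenic enzyme, fell with hypoxia under PBS from 1434 ± 452 to 712.6 ± 94.3 CPM (-1.01, SE 0.21, edgeR adjusted p = 0.0036). In the list 3 rose and 4 fell with hypoxia under PBS, 7 rose and 2 fell with DEX in normoxia, 5 rose and 3 fell with DEX in hypoxia, and 6 rose and 8 fell with hypoxia under DEX, with medians between -0.15 and 0.04.

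**Figure D5:**
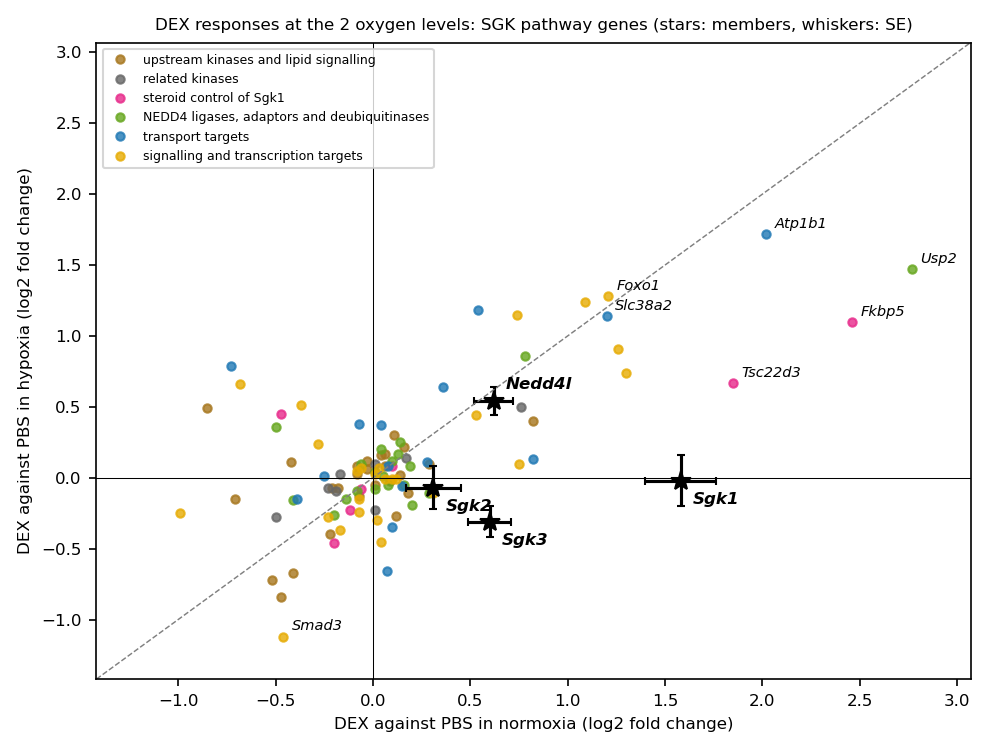
Log2 fold change with DEX in normoxia (x axis) and in hypoxia (y axis) for the 102 tested pathway genes, coloured by list, and for the 4 genes of the family (stars, whiskers 1 SE); the dashed line marks equal responses. Atp1b1, Foxo1, Slc38a2 and Nedd4l lie near the line, and below it lie Sgk1 at 1.58 and -0.02 and Sgk3 at 0.60 and -0.31, and also Fkbp5 at 2.46 and 1.10, Tsc22d3 at 1.85 and 0.67 and Usp2 at 2.77 and 1.47. The differences of Fkbp5, Tsc22d3 and Usp2 did not pass in edgeR.

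The genes whose log2 CPM followed each member most closely over the 12 libraries are given as a description. The libraries fall into 4 groups, so these coefficients mostly reflect group means. Nearest to Sgk1 were Ubl3 (Pearson r = 0.962), the aryl hydrocarbon receptor gene Ahr (0.956), Mrpl41 (0.949) and Narf (0.944). Ahr stood at 76.3 ± 8.68, 192.3 ± 12.6, 94.3 ± 13.8 and 90.4 ± 10.2 CPM in Normoxia_PBS, Normoxia_DEX, Hypoxia_PBS and Hypoxia_DEX (SD, n = 3). Nearest to Sgk2 were Cadm3 (0.986), Aspa (0.980), Notum (0.975) and Bach2 (0.975), and Bach2 stood at 13.3 ± 1.36, 21.4 ± 3.78, 4.07 ± 0.978 and 4.04 ± 1.03 CPM. Nearest to Sgk3 were Rnf44 (0.941), B3galnt2 (0.935), the actin gene Actb (0.928) and Elmsan1 (0.925), and Actb stood at 368.8 ± 30.1, 643.3 ± 70.3, 278.8 ± 16.6 and 224.7 ± 29.1 CPM. Nearest to Nedd4l were Usp1 (0.956), Gins4 (0.953), Kdm5c (0.952) and Kansl1 (0.949), and Kansl1 stood at 29.3 ± 4.64, 69.7 ± 3.69, 28.3 ± 2.53 and 62.1 ± 2.82 CPM. Between members r was 0.746 for Sgk1 and Sgk3, 0.709 for Sgk2 and Sgk3, and 0.602 for Sgk1 and Nedd4l, and it was 0.253 to 0.378 in the other pairs.

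The tissue label was checked against cell type markers. Summed hepatocyte markers reached 113824 to 149393 CPM in every library, and the acinar genes Prss2, Cpa1, Amy2a5 and Pnlip of the neighbouring pancreas had 0 counts, whereas the fifth acinar marker, Cela1, was at 3.55 to 10.5 CPM and fell with hypoxia under PBS and under DEX. Kupffer cells are the macrophages that reside in liver, and their markers were lower in hypoxia. All 8 fell with hypoxia under PBS and under DEX, where 35.7% and 42.9% of all tested genes passed in either direction. Their summed level was 415 to 632 CPM in the normoxic groups and 160.2 to 202 CPM in the hypoxic ones. With DEX 0 of the 8 passed in edgeR at either oxygen level, where 0 in normoxia and 1 in hypoxia had an unadjusted p under 0.05 and DESeq2 called 0 and 1. Of 7 endothelial markers 1 rose and 4 fell with hypoxia under PBS, and 3 fell under DEX. Their sums were 377 to 434 CPM in normoxia and 326 to 345 CPM in hypoxia. Of 7 stellate cell markers 4 fell with hypoxia under PBS and 5 under DEX. Of 7 hepatocyte markers 2 fell with hypoxia under PBS and 2 under DEX. Some neutrophil and lymphocyte markers fell with DEX in normoxia, where 16.8% of all tested genes passed in edgeR. The summed neutrophil markers were at 28.7 to 47.0 CPM in Normoxia_PBS and 9.41 to 15.6 CPM in Normoxia_DEX, and 1 of the 4 tested passed as lower in edgeR, where 4 had an unadjusted p under 0.05 and DESeq2 called 4. In hypoxia these sums were 23.1 to 86.7 CPM with PBS and 17.0 to 40.5 CPM with DEX. There 1 of the 4 passed as lower with DEX in edgeR and in DESeq2, where 13.2% of all tested genes passed in edgeR. With hypoxia under DEX 1 of the 4 passed as higher. Of 4 lymphocyte markers 2 fell with DEX in normoxia, with sums of 3.63 to 6.52 CPM against 2.27 to 2.86 CPM, and DESeq2 called 1. With hypoxia under PBS 2 of these 4 also fell in edgeR and 1 in DESeq2. The part of these cell types in the levels of the SGK kinases and Nedd4l was not tested.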

How the data were processed

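The authors' deposited table held whole-number counts per gene for 12 mouse liver libraries, with no normalization and no summary lines. Trimmomatic, HISAT2 2.0.4, SAMtools, featureCounts and DESeq2 are named with the mm10 build, per the submitters' processing notes, without roles. Libraries were made with a stranded mRNA kit, per the labels' protocols, and which annotation and strand setting were used in counting is not stated there. One protocol label calls both oxygen arms hypoxic, and groups were taken from titles that name normoxia. Of 54838 identifiers, 54723 had a symbol.

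Counts were fitted with edgeR 4.0.16 in R 4.3.3 (filterByExpr, TMM, robust glmQLFit, glmQLFTest). All 12 libraries entered, with a mean for each group and 8 residual degrees of freedom. Benjamini-Hochberg adjustment ran over 13861 genes, with 0.05 as the threshold. Every adjusted p is from this model unless DESeq2 or an alternative is named with it. Log2 CPM used a prior count of 2. The fit was tested on simulated data. Members and lists were chosen with earlier results of these data known. Named were the 4 members, the 4 genes most correlated with each (clone and model names left out), and up to 2 called genes per list, comparison and direction with at least 1 CPM in 1 group. Of the resulting 79 calls, mainly the 54 that held in every alternative are given. A gene that this rule names is not reported here. Pdpk1, Akt1, Scnn1a and Nr3c1 were added for their role, and values of Acnat2, Gm35041, Ndrg1 and Klf15 with DEX after they were seen. Counting errors cover sampling only. The alternatives tried were DESeq2 1.42.0, RLE size factors, no filter, a replicate block, only the groups compared, each library left out, Hypoxia_DEX-1 and Hypoxia_DEX-3 summed, Hypoxia_DEX-2 and Hypoxia_PBS-1 left out, and, added after the data were seen, coding lengths. A planned protein length was not run. Promoters are from RefSeq (GRCm38.p6), loci and lengths from GENCODE M21. Figures used matplotlib 3.10.9.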

Additional observations from a re-analysis of the deposited data

Results flagged for a closer look

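Sgk1 was flagged because hypoxia went with a higher level in every library under PBS and a lower level in every library under DEX. The difference of these log2 fold changes was -1.60, and no p is given for it because the gene was chosen with this value known.

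Irs2 was flagged because its DEX responses differed between the oxygen levels, with a log2 difference of 1.34 (SE 0.26, edgeR adjusted p = 0.0344). Irs2 fell with DEX in normoxia (-0.85, SE 0.19, edgeR adjusted p = 0.00854), a call lost when only the compared groups were fitted (adjusted p = 0.0636), and its value in hypoxia was 0.49 (edgeR adjusted p = 0.109). Its difference did not pass in 13 of 18 alternatives, with an adjusted p of 5.8e-05 to 0.094. Nr3c2 was flagged for the same reason, with a log2 difference of 0.91 (SE 0.19, edgeR adjusted p = 0.0352), which did not pass in 9 of 18 alternatives, with an adjusted p of 0.0032 to 0.103.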

How the results depend on the processing

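Of 20 fold changes of the 4 genes, 15 moved by less than the spread between replicates in every alternative, and none that was called changed direction. Leaving out Hypoxia_DEX-2 and Hypoxia_PBS-1 together gave -0.48 for Sgk3 with DEX in hypoxia and -1.07 for its difference of DEX responses. Over all alternatives Nedd4l was at -0.19 to 0.04 with hypoxia under PBS, 0.54 to 0.76 with DEX in normoxia and -0.21 to 0.01 for the difference. The far values, 0.04, 0.76 and -0.21, came without Normoxia_PBS-1.

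Counts of pathway genes were less stable. Over all alternatives, 3 to 8 genes fell with DEX in normoxia (6 with all libraries, 3 without Normoxia_DEX-1, Normoxia_DEX-3 or Normoxia_PBS-2). With DEX in hypoxia 9 to 18 rose (15 with all, 9 without Hypoxia_PBS-3) and 3 to 11 fell (10 with all). The last count was 3 without Hypoxia_DEX-1, 4 without Hypoxia_DEX-3, and 6 without Hypoxia_DEX-2, Hypoxia_PBS-2 or Hypoxia_PBS-3, 6 with DESeq2 or without the filter and 5 with Hypoxia_DEX-1 and Hypoxia_DEX-3 summed. For the difference of DEX responses 0 to 3 genes were higher and 0 to 3 lower over all alternatives, against 2 and 0. With the summed pair 0 were higher, and 3 were lower with DESeq2 or with Hypoxia_DEX-2 and Hypoxia_PBS-1 left out. The cause was not tested.

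Deviations from the group means correlated at -0.151 to 0.39 between same-numbered libraries of different groups. Libraries of different numbers were not compared in this way, so these values cannot show whether the numbers pair the mice. With a replicate block the difference for Sgk1 was -1.62, and 1 pathway gene passed as higher for the difference of DEX responses in place of 2. The fit of only the compared groups gives no value for that difference. Usp2 was low in Normoxia_PBS (3.38 ± 1.79 CPM), and the part of sequencing depth in its spread was not tested.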
